A study of Rattus norvegicus with 26 samples.

Results

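The spondins Spon1 and Spon2, the thrombospondins Thbs1 and Thbs2, tenascin C (Tnc), periostin (Postn), Sparc, osteopontin (Spp1) and the CCN proteins Ctgf and Cyr61 were followed through the conversion of rat multipotent adult progenitor cells (rMAPCs) towards smooth muscle cells (SMCs). These 10 genes were taken from 41012 gene probes of a whole-genome rat array by matching the gene name printed for each probe. For Spon1, Tnc and Cyr61, which had 2 probes each, the probe with the highest mean log2 level over the 26 arrays was used, so that mean chose the probe and is not a result. Every gene had a probe, and every one could be tested because the scanner called it well above background throughout at least 1 group of arrays. For Spon1, Thbs1, Thbs2, Postn and Spp1 that group was the primary SMCs alone, so 5 of the 10 genes entered the tests only through the sample in which they were high.

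The cells were 2 Oct4-expressing rMAPC lines from bone marrow of female Fischer rats, Cl19 (labelled as taken at 3 weeks of age) and 3c3 (labelled E18), each of them a single clone. They were plated in basal rMAPC medium with TGFβ1 and PDGF-BB (TGF-ß and PDGF-bb in the labels), without serum according to the methods. Cells were collected before treatment (d0) and on d2, d4 and d6, with 3 arrays per line and day. No untreated culture was arrayed on d2, d4 or d6. A change from d0 therefore cannot be assigned to the factors apart from the serum-free medium, the plating or the time in culture. Rat aortic RNA from a commercial supplier, described in the methods as primary smooth muscle cell RNA, was hybridized on 2 arrays as the positive control, with no strain, age or sex given. The methods call the replicates of a line and day biological, but neither they nor the labels say whether these came from separate cultures, nor whether the primary arrays were separate extracts, so the p-values measure the spread between these arrays.

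Matricellular proteins are secreted into the extracellular matrix, where they act on cells through integrins, CD36, CD47, syndecans and other receptors more than they bear load. TGFβ is a well known inducer of Ctgf, and Ctgf and Cyr61 are also classical targets of the transcriptional coactivator YAP acting through TEAD factors. In the vessel wall osteopontin, tenascin C, thrombospondin 1 and periostin are known from cultured, migrating or injured SMCs, whereas Sparc is a collagen-binding protein that is also abundant in parietal endoderm.

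Between 52.7% and 61.4% of features were well above background on the Cl19 arrays, 43.2% to 57.1% on the 3c3 arrays and 43.6% to 44.5% on the primary arrays. The lowest 3c3 shares, 43.2% to 51.8%, were all on the slide of replicate 3. Its negative controls had a net signal of 28.3 to 44.5, against 10.9 to 14.0 on the other slides. Each of the 7 slides held 1 replicate of 1 line on all its days, or the primary SMCs, and each of the 3 scan days held a single line or the primary SMCs, so levels of different lines and their scan day cannot be told apart. The array labelled Cl19 d2 replicate 1 stood apart: over all tested probes it differed from the other Cl19 d2 arrays by a root mean square of 0.88 to 0.92 (log2), but from the 3c3 d2 arrays by 0.38 to 0.54. Results for d2 in Cl19 are given with and without it. Of 8 smooth muscle markers with a probe, all were well above background on both primary arrays, 7 on every Cl19 d6 array and 5 on every 3c3 d6 array. On d0 these counts were already 6 in Cl19 and 5 in 3c3. The summed signal of the markers was 1865 to 2252 on d0 and 61167 to 73142 on d6 in Cl19. In 3c3 the sum was 1487 to 1719 on d0 and 29055 to 46110 on d6. On the primary arrays all 9 fibroblast and mesenchyme markers were also well above background, against 0 of 7 endothelial markers. Of 8 macrophage and leukocyte markers 5 were, but so were 4 or 5 on every array of each rMAPC group. These are bulk samples, in which a change in the number of cells of a type and a change in RNA per cell cannot be told apart.

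**Figure D1:**
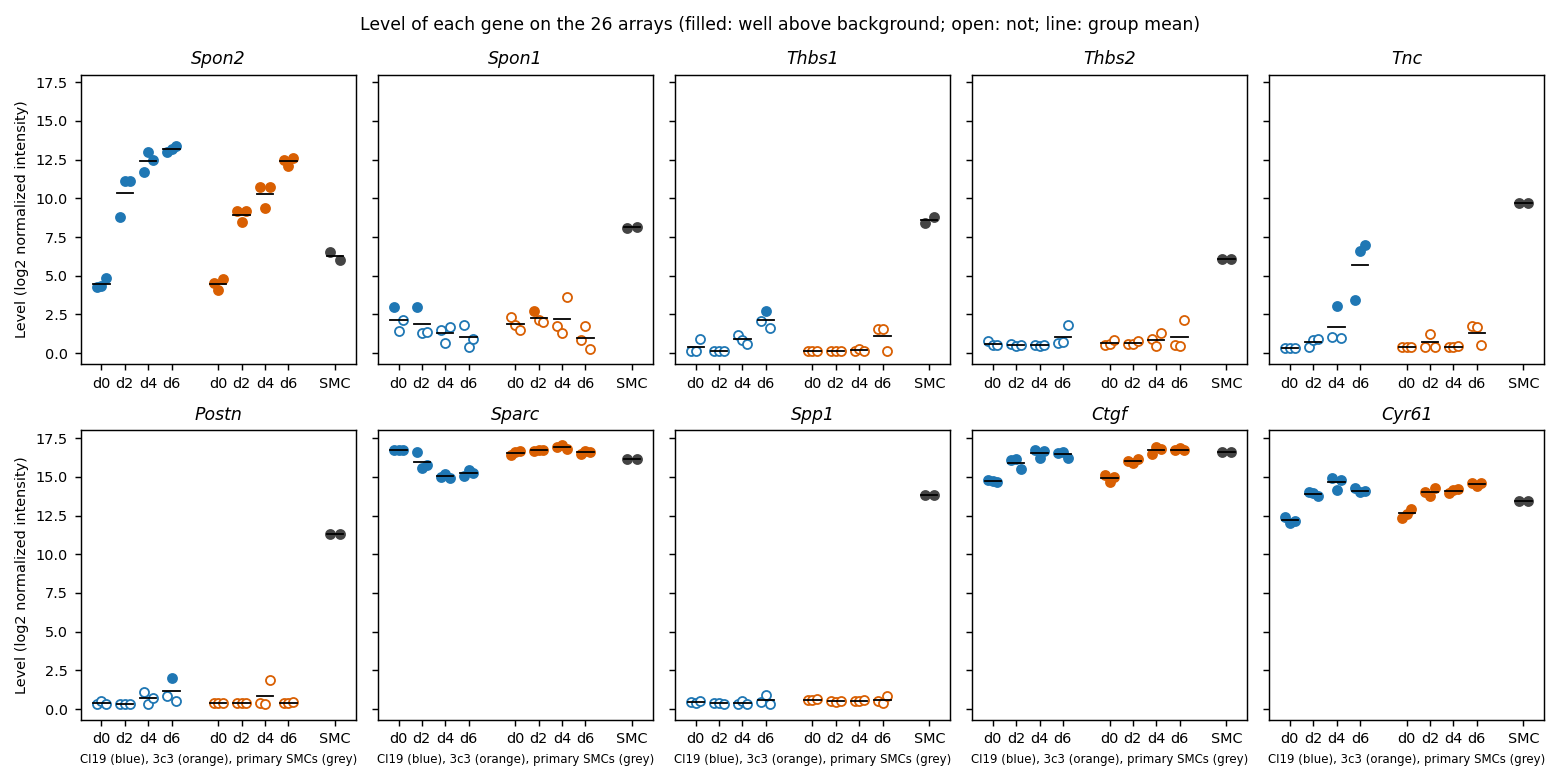
Level of each gene (log2 of quantile-normalized intensity, y axis) on each of the 26 arrays, grouped on the x axis by line and day, with 1 point per array and the group mean as a line. Filled points were well above background; Spon2, Ctgf and Cyr61 climb in both lines, Sparc drops in Cl19, and Spp1 and Postn stand high only on the primary SMC arrays, at 13.80 and 13.82 and at 11.30 and 11.29.

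Ctgf and Cyr61, secreted CCN proteins that bind integrins and heparan sulphate, rose early in both lines. By d6 the Ctgf signal was 3.31-fold higher than on d0 in Cl19 and 3.53-fold higher in 3c3, and that of Cyr61 was 3.76-fold and 3.71-fold higher. On the log2 scale most of either change was present on d2. The promoters of this pair were searched because the genes moved together. RefSeq (build GRCr8), which lists them as Ccn2 and Ccn1, gave a window of 300 bases, from 250 before to 50 after the start site, for 8 of the 10 genes; Spon1 and Thbs2 had none. The letters GGAATG, recognized by TEAD factors, were sought on both strands. In Ctgf they occurred 3 times, in the 2 windows shown first, and in Cyr61 once, on the opposite strand; the capitals mark the match.
Ctgf, chr1:22624764-22624791, minus strand, match 166 bases before the start site: tttcagacggaGGAATGtggagtgtcaa
Ctgf, chr1:22624695-22624721, minus strand, matches 101 and 92 bases before the start site: tggggaGGAATGcgaGGAATGtccctg
Cyr61, chr2:237225786-237225813, minus strand, match 113 bases before the start site: gcgccaaccaaCATTCCtgagatgtttg
GGAATG was present in 4 of the 8 windows (also in Thbs1 and Sparc) and in 14.2% of all 33469 promoter windows, and 3 or more copies in 0.0956% of them. The SMAD-type letters CAGAC were found in 7 of the 8 windows (all but Thbs1) and in 50.1% of all windows. The AP-1 letters TGANTCA (7.33% of all windows) and the CArG box (1.64%), also searched on both strands, were in none of the 8. None of these matches overlapped another, and each describes the letters alone.

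The Ctgf probe (chr1:21327574-21327633, rat build rn4) was spotted on 10 features, whose standard deviation within an array was 0.043 to 0.115 on the log2 scale. In Cl19 its level was 14.76, 14.74 and 14.68 on d0, 16.09, 16.13 and 15.49 on d2, 16.72, 16.23 and 16.70 on d4, and 16.52, 16.62 and 16.23 on d6. In 3c3 it was 15.14, 14.68 and 14.98 on d0, 16.04, 15.87 and 16.18 on d2, 16.46, 16.90 and 16.77 on d4, and 16.71, 16.86 and 16.70 on d6. All d2 arrays lay above all d0 arrays, and d4 and d6 overlapped in both lines. The difference of d6 from d0 was 1.73 (SE 0.18, adjusted p = 1.67e-07) in Cl19 and 1.82 (SE 0.18, adjusted p = 1.54e-07) in 3c3, and that of d2 from d0 was 1.18 (adjusted p = 8.53e-05) and 1.1 (adjusted p = 0.000215). From d2 to d6 Ctgf rose by a further 0.55 in Cl19 (adjusted p = 0.0233) and by 0.73 in 3c3 (adjusted p = 0.00552). Without Cl19 d2 replicate 1 the early step in Cl19 was 1.08 (adjusted p = 0.000497) and the later one 0.64 (adjusted p = 0.0233). The later step in Cl19 missed the threshold without d2 replicate 3 (0.35, adjusted p = 0.157), without d6 replicate 1 (0.52, adjusted p = 0.0681) or without d6 replicate 2 (0.47, adjusted p = 0.099), and with scaling to the 75th percentile it missed it in both lines (adjusted p = 0.105 and 0.0602). Across all alternatives the later step in Cl19 was 0.35 to 0.67, with adjusted p up to 0.203.

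Cyr61 was read on chr2:243824922-243824981 (rn4). In Cl19 its level was 12.42, 12.03 and 12.15 on d0, 14.05, 13.96 and 13.75 on d2, 14.91, 14.18 and 14.81 on d4, and 14.28, 13.99 and 14.06 on d6. In 3c3 it was 12.36, 12.61 and 12.95 on d0, 14.00, 13.78 and 14.29 on d2, 13.93, 14.17 and 14.23 on d4, and 14.58, 14.41 and 14.60 on d6. No treated array overlapped a d0 array; in Cl19 the highest mean was on d4, and in 3c3 the d6 arrays lay above all earlier ones. The difference of d6 from d0 was 1.91 (SE 0.19, adjusted p = 9.04e-08) in Cl19 and 1.89 (SE 0.19, adjusted p = 1.84e-07) in 3c3. Between d0 and d2 alone it was 1.72 (adjusted p = 1.92e-06; 1.66, adjusted p = 1.17e-05, without Cl19 d2 replicate 1) and 1.38 (adjusted p = 3.07e-05). From d2 to d6 the difference was 0.19 in Cl19 (adjusted p = 0.509; 0.25, adjusted p = 0.462, without d2 replicate 1) and 0.51 in 3c3, where the adjusted p was 0.0548 without and 0.0107 with the replicate number as a block. The second Cyr61 probe (chr2:243824388-243824447) gave 1.74 (adjusted p = 0.000309) in Cl19 and 1.65 (adjusted p = 0.000627) in 3c3 for d6 against d0. Each slide carried all days of 1 replicate. Within slides the Cyr61 level on d6 exceeded d0 by 1.87 to 1.96 for Cl19 and by 1.65 to 2.22 for 3c3, and that of Ctgf by 1.55 to 1.88 and by 1.57 to 2.17.

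Spon2 showed the largest change of the 10 genes in both lines. It encodes spondin 2, a secreted protein of the F-spondin family that binds integrins, and its signal on d6 was 426-fold above d0 in Cl19 and 242-fold above in 3c3. The probe (chr14:82972630-82972689, rn4) was well above background on all 26 arrays. In Cl19 its level was 4.26, 4.31 and 4.85 on d0, 8.80, 11.14 and 11.11 on d2, 11.69, 13.00 and 12.46 on d4, and 13.02, 13.19 and 13.40 on d6. In 3c3 it was 4.54, 4.07 and 4.82 on d0, 9.19, 8.46 and 9.20 on d2, 10.74, 9.35 and 10.71 on d4, and 12.46, 12.10 and 12.63 on d6. In either line the 4 days followed each other in order with no overlap between arrays of successive days. The lowest Cl19 d2 value, 8.80, came from the array that stood apart.

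The Spon2 difference of d6 from d0 was 8.73 (SE 0.50, adjusted p = 7.78e-11) in Cl19 and 7.92 (SE 0.50, adjusted p = 3.96e-10) in 3c3. On d2 it was already 5.88 above d0 in Cl19 (adjusted p = 7.71e-08) and 4.48 in 3c3 (adjusted p = 2.38e-06), and it rose by a further 2.86 (adjusted p = 0.00018) and 3.44 (adjusted p = 6.78e-05) to d6. Over the alternatives this later step was 2.08 to 3.25 in Cl19 and 3.18 to 3.59 in 3c3, with adjusted p up to 0.101 and 0.0206. Without Cl19 d2 replicate 1 the early step was 6.65 (adjusted p = 1.19e-09) and the later one 2.08 (adjusted p = 0.000765). Within single slides d6 exceeded d0 by 8.55 to 8.88 for Cl19 and by 7.81 to 8.03 for 3c3. With normexp background correction, which lifts dim values, the differences of d6 from d0 were 6.63 (Cl19) and 5.78 (3c3), so the fold depends on how the low d0 signal is treated. The change to d6 in 3c3 was smaller than that in Cl19 by 0.81, with a 95% confidence interval of -2.28 to 0.66 (adjusted p = 0.54).

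**Figure D2:**
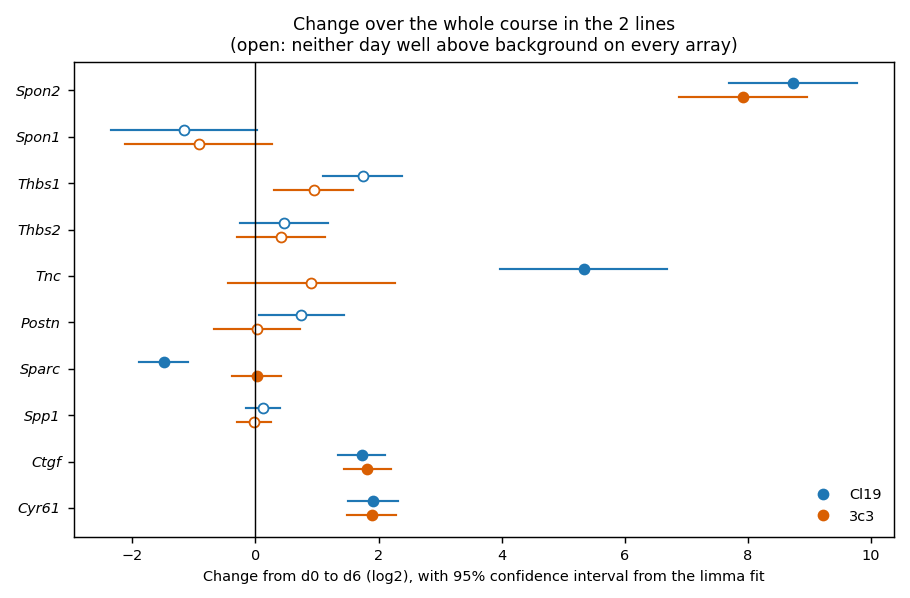
Change from d0 to d6 (log2, x axis) of each gene (y axis) in Cl19 and 3c3, with the 95% confidence interval of the limma fit. Open points mark genes with at least 1 dim array on both days; the intervals of the lines lie apart for Sparc (-1.88 to -1.09 in Cl19, -0.38 to 0.42 in 3c3) and Tnc (3.98 to 6.68 in Cl19, -0.44 to 2.26 in 3c3).

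Sparc, a collagen-binding glycoprotein of basement membranes and connective tissue, fell in Cl19, and no change was detected in 3c3. On the probe at chr10:40811473-40811532 (rn4) its signal on d6 was 2.80-fold below d0 in Cl19. In Cl19 its level was 16.73, 16.72 and 16.70 on d0, 16.63, 15.57 and 15.74 on d2, 15.01, 15.17 and 14.93 on d4, and 15.03, 15.43 and 15.24 on d6. In 3c3 it was 16.42, 16.59 and 16.65 on d0, 16.69, 16.73 and 16.74 on d2, 16.94, 17.08 and 16.78 on d4, and 16.44, 16.65 and 16.63 on d6. The Cl19 d4 and d6 arrays overlapped each other and lay below every other rMAPC array, while the 3c3 arrays spanned less than 1 log2 unit over all days. The difference of d6 from d0 was -1.49 (SE 0.19, adjusted p = 2.06e-06) in Cl19 and 0.02 (SE 0.19, adjusted p = 0.943) in 3c3. The 3c3 change exceeded that in Cl19 by 1.51 (SE 0.27, 95% confidence interval 0.94 to 2.07, adjusted p = 0.000486). Within slides, d6 minus d0 ranged from -1.71 to -1.29 for Cl19 and from -0.03 to 0.06 for 3c3.

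On d2 Sparc in Cl19 was 0.74 below d0 by the mean of 3 arrays (adjusted p = 0.00776), but the values were uneven. The array that stood apart read 16.63, near the 16.69 to 16.74 of the 3c3 d2 arrays. Without it the difference was -1.06 (adjusted p = 9.82e-06) and the later step to d6 was -0.43 (adjusted p = 0.0259), against -0.75 (adjusted p = 0.0045) with it. Over the alternatives that later step was -0.95 to -0.43, with adjusted p up to 0.23. Without d2 replicate 2 or replicate 3 the early difference missed the threshold (-0.53, adjusted p = 0.0657, and -0.62, adjusted p = 0.0535). Across all alternatives the early difference was -1.06 to -0.53, with adjusted p up to 0.216. Signals of 7 parietal endoderm markers (laminin, type IV collagen and thrombomodulin genes and Plat) were summed per array. In Cl19 their sum was 210684 to 226530 on d0, 78047 to 152505 on d2, 48325 to 85123 on d4 and 28187 to 43656 on d6. In 3c3 it was 180933 to 202474, 146069 to 167724, 195658 to 231038 and 130571 to 168386 on the same days. The d6 sums lay below the d0 sums in both lines, also in 3c3, where no change of Sparc was detected, and 1 member, Plat, went the other way, with mean levels of 3.96 on d0 and 10.93 on d6 in Cl19. All 7 were well above background on every Cl19 d0, Cl19 d6 and 3c3 d6 array, 6 of them on every 3c3 d0 array, and each was above background on some array of every rMAPC group. Their part in the Sparc result was not tested.

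Tnc, the large hexameric matrix protein tenascin C, appeared late and in Cl19. Its level there was 0.35, 0.34 and 0.31 on d0 and 0.37, 0.84 and 0.90 on d2, on no array well above background. It was 1.04, 3.02 and 1.01 on d4, with 1 of 3 arrays well above background, and 3.43, 6.58 and 6.98 on d6, with 3 of 3. In 3c3 it lay between 0.38 and 1.73 over all 12 arrays, none well above background. Its 3c3 values on d6 were 1.73, 1.68 and 0.52, the last on the slide with high negative controls. The d6 arrays of Cl19 thus lay above all those of 3c3, though replicate 1 was far below the others. As the d0 signal was below background, the Cl19 change was given as a bound: d6 was at least 9.89-fold above d0 (difference 5.33, SE 0.65, adjusted p = 1.04e-06). Over the alternatives the difference was 1.08 to 6.45 (adjusted p up to 0.0249), so this bound depends on the processing. The 3c3 change was smaller by 4.42 (SE 0.91, 95% confidence interval -6.33 to -2.51, adjusted p = 0.00174).

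The second Tnc probe was well above background on 2 of 3 Cl19 d6 arrays and on no other rMAPC array, and its line difference was -1.45 (adjusted p = 0.0462). Neither Tnc probe has a genome position in the array annotation. With normexp correction the line difference of the brighter probe was -1.06 (adjusted p = 0.0106), and over all alternatives it ranged from -5.54 (without Cl19 d6 replicate 1) to that value. Summed signals of 9 fibroblast and mesenchyme markers were 4988 to 5507 on Cl19 d0, 9607 to 15326 on Cl19 d6, 4558 to 5238 on 3c3 d0 and 1558 to 3406 on 3c3 d6. Of these 9, the number well above background on every array was 2, 5, 2 and 2, and the number on no array 6, 4, 6 and 6. Markers within this list ran in opposite directions. The mean level of Col1a1 went from 6.00 on d0 to 13.26 on d6 in Cl19 and from 6.01 to 9.53 in 3c3, while that of Pdgfra went from 12.34 to 10.41 and from 12.25 to 10.48. Their part in the Tnc result was not tested.

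**Figure D3:**
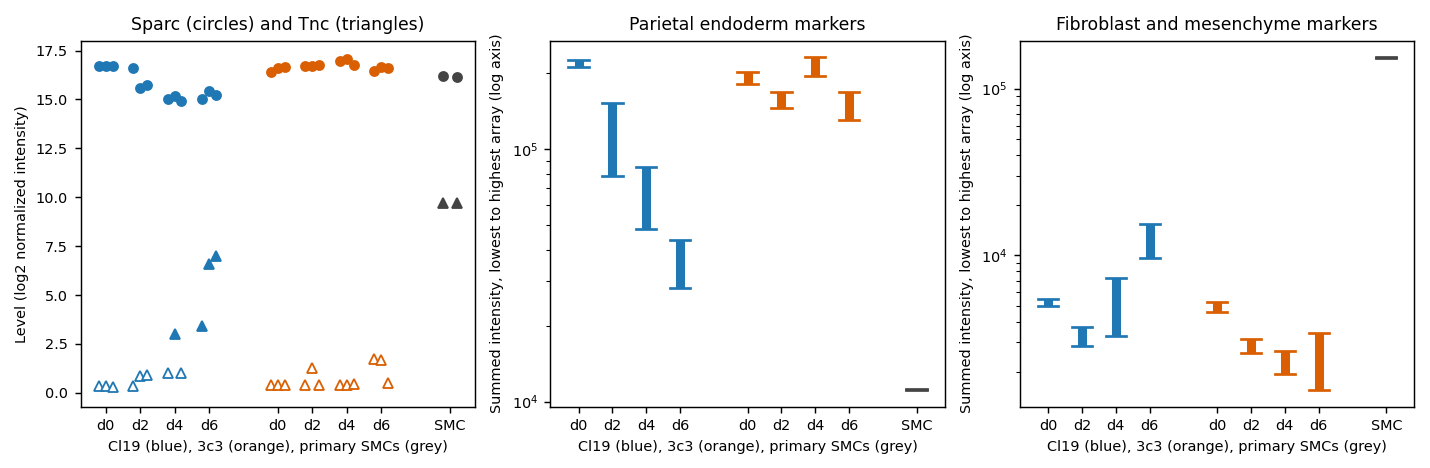
Left, level of Sparc (circles) and Tnc (triangles) on each array (log2); open points were not well above background. Middle and right, the range over arrays of the summed intensity (log axis) of 7 parietal endoderm and 9 fibroblast and mesenchyme markers by line and day: in Cl19 the first sum ends at 28187 to 43656 and the second at 9607 to 15326 on d6.

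The remaining members were at or near background throughout the rMAPC course. Spp1, a phosphorylated integrin ligand that marks modulated SMCs, lay between 0.33 and 0.89 on the rMAPC arrays and was well above background on none. Thbs2, an antiangiogenic thrombospondin, lay between 0.45 and 2.17 and was likewise above background on none. Postn, a fasciclin-domain protein of collagen-rich tissue, lay between 0.30 and 2.02 and was well above background on 1 array, of Cl19 d6. Spon1, the F-spondin of the nervous system floor plate, lay between 0.30 and 3.61 and was well above background on 3 arrays, of Cl19 d0, Cl19 d2 and 3c3 d2, and its second probe on none of the 26.

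Thbs1, a TGFβ-activating thrombospondin, passed the test of d6 against d0 in both lines without being measurable. In Cl19 its level was 0.15, 0.15 and 0.90 on d0 and 2.08, 2.69 and 1.65 on d6, with 1 of these 6 arrays well above background. In 3c3 it was 0.15 on each d0 array and 1.57, 1.57 and 0.15 on d6, the last on the slide with high negative controls, with none well above background. The adjusted p was 8.01e-05 and 0.0149, but with values floored at the lowest signal above background it was 0.955 and 0.842, and with normexp background correction 0.131 and 0.346. No fold change is given for Thbs1 within the rMAPC lines.

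Counted together, 6 of the 10 genes passed the threshold for any change over d2, d4 and d6 in Cl19, beside 54.3% of all 24442 probes tested, and 4 in 3c3, beside 50%. On d2 against d0, Cl19 had 4 calls (22.6% of all probes): Spon2, Ctgf and Cyr61 higher (11.2% of all probes) and Sparc lower (11.5%). The 3 calls in 3c3 (19.1%) were Spon2, Ctgf and Cyr61, all higher (9.8%), and none was lower (9.27%). The median difference over the 10 genes was -0.06 and 0.23, beside -0.07 in either line over all probes. Without Cl19 d2 replicate 1 the Cl19 calls were again 4, with 3 higher and 1 lower and a median of -0.07.

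From d2 to d6, Cl19 had 5 calls (33.3% of all probes), with Spon2, Ctgf, Tnc and the dim Thbs1 higher (15.2%) and Sparc lower (18.1%). The line 3c3 had 3 (27.5%), Spon2, Ctgf and the dim Thbs1, all higher (12%), with none lower (15.5%). The medians of the 10 genes were 0.55 and 0.46, beside -0.12 for all probes of either line; without Cl19 d2 replicate 1 Cl19 again had 5 calls, with a median of 0.60. Over the whole course from d0 to d6, 6 genes were called in Cl19 (52.2%), of which Spon2, Ctgf, Cyr61, Tnc and Thbs1 were higher (22%) and Sparc lower (30.3%). In 3c3 the calls were Spon2, Ctgf, Cyr61 and Thbs1 (48.2%), all higher (19.7%), with none lower (28.6%). The number of genes called by d6 was thus near the background. Their median was 1.24 in Cl19 and 0.66 in 3c3. It was set in whole or part by genes near background: Postn (0.75) in Cl19, Thbs2 (0.41) and Tnc (0.91) in 3c3. The same holds for the medians on d2 and from d2 to d6, so none is a measured change of the set. Over all probes the median from d0 to d6 was -0.20 and -0.21, which became 0.10 and 0.09 with the authors' unnormalized values. Those values also raised the share of higher calls among all called probes on d2, from 49.3% to 64.9% (Cl19) and from 51.4% to 78.1% (3c3), and on d6, from 42.1% to 55.7% and from 40.7% to 56.4%.

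The lines were set against each other as well. On d0 none of the 10 genes differed between 3c3 and Cl19 by the limma test, beside 3.07% of all probes (1.08% higher and 2% lower in 3c3). Before adjustment, 1 gene, Cyr61, had a p below 0.05 (0.0313; 0.44 higher in 3c3, adjusted p = 0.365), and the methods' t-test called none after adjustment and 2 before it. The d6 change differed between lines for Tnc and Sparc, 2 of the 10 genes, beside 17.4% of all probes. Sparc was the gene with the larger value in 3c3 (9.27% of all probes) and Tnc that with the smaller (8.17%). For Ctgf the difference was 0.09 (95% confidence interval -0.44 to 0.63) and for Cyr61 -0.02 (-0.59 to 0.54), so differences beyond these bounds were not seen, but equality is not shown.

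Against primary SMCs the genes fell into 3 groups. Spp1, Postn, Thbs1, Thbs2, Tnc and, by 1 of its 2 probes, Spon1 were higher on the primary arrays than in either line on d6. Spon2 was far lower there. For Ctgf, Cyr61 and Sparc the direction against at least 1 line depended on the scaling or the probe. Spp1 was at 13.80 and 13.82 on the primary arrays, at least 3759-fold above Cl19 d6 and at least 2022-fold above 3c3 d6. Like Postn, Thbs1, Spon1 and Thbs2 it had entered the tests through these very arrays, so no p-value against these arrays is given for those 5 genes, and their bounds are a description. Postn was at 11.30 and 11.29, at least 587-fold and 354-fold higher. The lowest log2 differences over the alternatives, from Cl19 d6 and 3c3 d6, were 7.70 and 7.70 for Spp1 and 5.20 and 5.29 for Postn. The bounds thus depend on the processing and are not minima over it. In all of these bounds the rMAPC side was not well above background on at least 2 of its 3 arrays.

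Thbs1 was at 8.43 and 8.79 in primary SMCs, at least 78.2-fold above Cl19 d6 and 55.1-fold above 3c3 d6. Spon1 was at 8.10 and 8.14, at least 72.8-fold and 39.2-fold higher, but its second probe was at 0.67 and 0.72 there, well above background on neither array. Thbs2 was at 6.07 on both arrays, at least 17.3-fold and 9.47-fold higher. These bounds too depend on the processing. The lowest log2 differences over the alternatives were 2.87 and 2.93 for Thbs1, 2.50 and 2.49 for Spon1, and 0.86 and 0.90 for Thbs2. Of the d6 arrays of both lines, 1 was well above background for any of these 3 genes, a Cl19 array for Thbs1.

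Tnc, at 9.68 and 9.72, was 16.4-fold above Cl19 d6 (difference 4.04, SE 0.72, adjusted p = 5.33e-05). It was at least 117-fold above 3c3 d6 (adjusted p = 3.02e-09). With the authors' unnormalized values the first difference was 1.61 (adjusted p = 0.104). The lowest log2 difference from 3c3 d6 over the alternatives was 3.75, so that bound depends on the processing. Spon2 was at 6.53 and 6.02 in primary SMCs, which is 122-fold below Cl19 d6 (difference -6.93, SE 0.56, adjusted p = 1.12e-09) and 69.6-fold below 3c3 d6 (-6.12, SE 0.56, adjusted p = 6.82e-09). The primary value lay above all d0 arrays of either line and below all their d2 arrays. Under every alternative tried the Spon2 difference stayed between -9.03 and -6.02 for Cl19 and between -8.21 and -5.16 for 3c3.

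**Figure D4:**
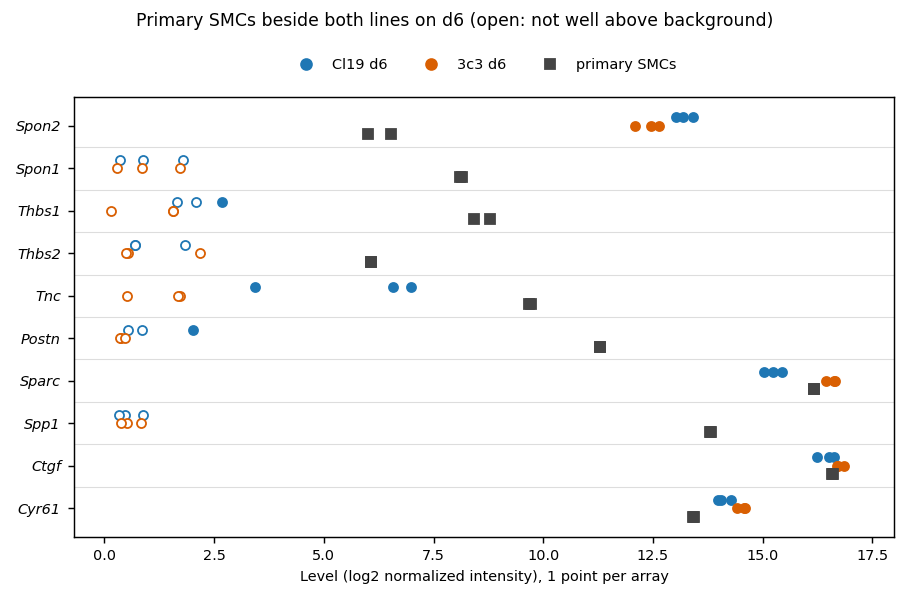
Level (log2 normalized intensity, x axis) of each gene on the Cl19 d6 and 3c3 d6 arrays (circles) and on the primary SMC arrays (squares), 1 point per array, open where not well above background. Spon2 is lower on the primary arrays (6.53 and 6.02) than on any d6 array, and 6 genes are higher there; levels of different genes cannot be compared with one another.

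Ctgf was at 16.58 and 16.59 in primary SMCs, 0.13 above Cl19 d6 (adjusted p = 0.582) and 0.17 below 3c3 d6 (-0.17, adjusted p = 0.463), but 1.82 and 1.51 above them with 75th percentile scaling and -0.55 and -0.79 with the authors' values. Cyr61, at 13.44 and 13.41, was lower by the brighter probe (-0.69, adjusted p = 0.00735, and -1.11, adjusted p = 0.000116) but higher by the second (1.58, adjusted p = 0.00128, and 1.16, adjusted p = 0.0122), so its probes disagreed in direction; with 75th percentile scaling the brighter probe gave 0.05 and -0.35. Sparc, at 16.18 and 16.16, was 0.94 above Cl19 d6 (adjusted p = 0.000589; 0.29, adjusted p = 0.286, with the authors' values) and -0.40 from 3c3 d6 (adjusted p = 0.0954), and the latter became 1.28 with 75th percentile scaling. The median over all probes was -0.13 for either comparison, -2.17 and -2.09 with the authors' values and 0.21 for both with 75th percentile scaling. By the count, 9 of the 10 genes were called against Cl19 d6 (71.4% of all probes), 7 higher (32.8%) and 2 lower (38.6%) in primary SMCs. Against 3c3 d6 there were 8 (71.5%), 6 higher (33.4%) and 2 lower (38.1%), and 5 of the higher calls in either comparison are the genes that entered through the primary arrays, so neither count is support for a property of the members. Over all probes higher calls were 45.9% and 46.7% of all calls, against 8.3% and 9.5% with the authors' values. Fibroblast and mesenchyme markers summed to 153778 to 154149 on the primary arrays. Macrophage and leukocyte markers summed to 1635 to 1648 there, within the 922 to 2116 of 3c3 d6 and above the 226 to 281 of Cl19 d6. Platelet and megakaryocyte markers, of which 1 of 4 was well above background there, summed to 6854 to 7014. Their sum was 208 to 272 on Cl19 d6 and 35 to 148 on 3c3 d6. The part of any of these marker lists in the differences was not tested.

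Wider gene groups were then examined on d6 against d0. Of 16 tested related matricellular genes, Cl19 had 10 higher and 1 lower, and 3c3 had 7 higher and 2 lower, with medians of 2.14 and 0.99 beside -0.20 and -0.21 over all probes (0.35 and 0.12 with normexp correction, and then 4 higher and 1 lower in 3c3). For each of these lists the shares of all probes called higher and lower were 22% and 30.3% in Cl19 and 19.7% and 28.6% in 3c3. Ecm1, an extracellular matrix protein, rose by 3.71 (adjusted p = 2.64e-09) in Cl19 and by 4.37 (adjusted p = 5.62e-10) in 3c3. Fbln2, a fibulin of elastic fibres, rose by 5.01 in Cl19 (adjusted p = 0.000678), from 4.78 to 9.79, whereas its 3c3 mean went from 2.93 to 6.24, with 2 of the 3 d0 arrays above background. Tgfbi, a TGFβ-induced adhesion protein, had a mean level in Cl19 of 1.76 on d0 and 11.19 on d6, and in 3c3 of 0.97 and 3.87, with 1 and 0 of the d0 arrays well above background. Fstl1, a Sparc-related glycoprotein, went from 1.81 to 4.07 in Cl19 and from 1.65 to 4.95 in 3c3, again with 1 and 0 of the d0 arrays above background.

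Among 12 tested proteins with thrombospondin type 1 repeats, the module shared by spondins and thrombospondins, Cl19 had 7 higher and 2 lower (median 1.13), and 3c3 had 4 higher and 1 lower (median 0.35), beside the same shares of all probes. With normexp the medians were 0.32 and 0.04. Adamtsl5 rose by 1.62 (adjusted p = 0.000289) and 2.65 (adjusted p = 1.89e-06) and Thsd1 by 2.04 (adjusted p = 3.40e-07) and 2.57 (adjusted p = 3.38e-08). Adamtsl4 had mean levels of 2.57 and 4.80 in Cl19 and 2.06 and 5.14 in 3c3 on d0 and d6, with 2 and 0 of the d0 arrays well above background. Rspo3, a secreted Wnt agonist, moved the other way, from 5.95 to 1.18 in Cl19 (adjusted p = 1.02e-06) and from 6.65 to 4.17 in 3c3 (adjusted p = 0.00144), with 1 and 2 of the d6 arrays still above background.

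Receptors of matricellular proteins were measured next: of 23 tested, Cl19 had 13 higher and 5 lower (median 1.03), and 3c3 had 12 higher and 1 lower (median 1.00), beside 22% and 30.3% and beside 19.7% and 28.6% of all probes. With normexp the medians were 0.59 and 0.38. Itga9, an integrin subunit that binds tenascin C and osteopontin, rose by 5.10 (adjusted p = 1.46e-12) and 4.50 (adjusted p = 1.27e-11). Cd47, a thrombospondin receptor, rose by 4.64 in Cl19 (adjusted p = 5.87e-08) and reached a mean of 6.13 on d6 in 3c3 from 3.00 on d0. Lrp1, an endocytic receptor that clears thrombospondins, rose by 2.90 (adjusted p = 5.02e-06) and 1.52 (adjusted p = 0.00378). Itgb3, the partner of the alpha v integrin, had a mean level in Cl19 of 0.59 on d0 and 4.96 on d6, and in 3c3 of 0.64 and 2.48, where 1 of 3 d6 arrays was well above background.

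For the YAP and TEAD list the picture was mixed. Of 21 tested genes, Cl19 had 7 higher and 3 lower (median 0.00), and 3c3 had 6 higher and 5 lower (median 0.13, but -0.05 with 75th percentile scaling), against 22% and 30.3% and against 19.7% and 28.6% of all probes. With normexp the medians were 0.03 and 0.08. Ankrd1, a nuclear ankyrin repeat protein and a YAP target like Ctgf and Cyr61, rose by 4.14 (adjusted p = 1.00e-09) and 3.18 (adjusted p = 5.67e-08), and the kinase gene Nuak2 by 5.60 (adjusted p = 3.01e-10) and 4.92 (adjusted p = 2.91e-09). Amot, a junctional binding partner of YAP, rose by 3.62 (adjusted p = 5.24e-06) and 2.78 (adjusted p = 0.000136), and F3, tissue factor, by 2.36 (adjusted p = 2.42e-07) and 1.82 (adjusted p = 9.30e-06). Of 16 serum response factor immediate early genes, a family to which Cyr61 is often assigned, Cl19 had 8 higher and 2 lower (median 1.22), and 3c3 had 10 higher and 0 lower (median 1.55), beside those same shares. With normexp the medians were 0.78 and 0.94. Fosl1 rose by 3.14 (adjusted p = 1.88e-06) and 2.03 (adjusted p = 0.000317), Ier3 by 2.60 (adjusted p = 2.42e-07) and 2.77 (adjusted p = 1.87e-07), Junb by 2.08 (adjusted p = 1.52e-07) and 1.62 (adjusted p = 5.43e-06), and Klf6 by 2.04 (adjusted p = 4.73e-06) and 1.82 (adjusted p = 2.65e-05). All 20 genes named from these lists kept their direction in both lines under 75th percentile scaling, normexp correction and the authors' values; with normexp 17 of them passed the threshold in both lines, Tgfbi, Fbln2 and Itgb3 missing it in 3c3. Several changes were smaller with normexp. Fstl1 gave 0.28 in Cl19 and 0.48 in 3c3, Adamtsl4 0.38 and 0.61, Itgb3 0.59 and 0.13, and Tgfbi 5.14 and 0.24. For 3c3 Cd47 gave 0.98 and Fbln2 0.95. In Cl19 Itga9 then gave 2.97, Nuak2 3.34, Cd47 2.41, Fbln2 3.32, Thsd1 1.18, Fosl1 1.80 and Rspo3 -0.97, and in 3c3 Nuak2 gave 2.69, Amot 1.52, Thsd1 1.36, Fosl1 1.32 and Rspo3 -0.99.

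**Figure D5:**
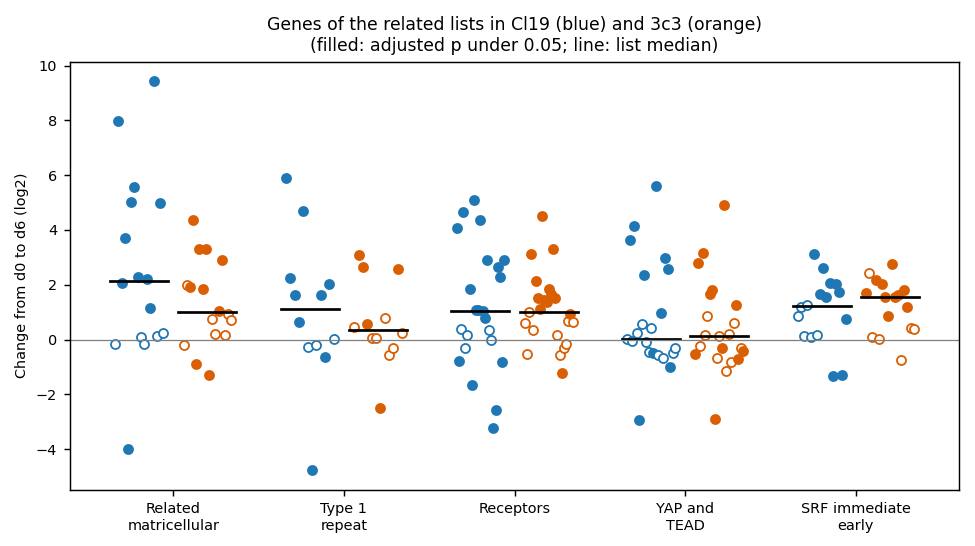
Change from d0 to d6 (log2, y axis) of each tested gene of the 5 related lists (x axis) in Cl19 and 3c3, filled where the adjusted p was under 0.05, with the list median as a line. The related matricellular genes have medians of 2.14 and 0.99 and the YAP and TEAD genes of 0.00 and 0.13.

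Spon2, Ctgf, Cyr61 and the dim Thbs1 passed the threshold for change over time in both lines. For these genes the probes with the most similar profile over the 9 group means were sought among 9673 named genes. The profile of Spon2 was closest to those of Plat (Pearson r = 0.995), Dbndd1 (0.995) and Klhl24 (0.989). Plat, tissue plasminogen activator, rose by 6.97 in Cl19 and 6.59 in 3c3, although it belongs to the parietal endoderm markers whose sum was lower on d6 than on d0 in Cl19. Ctgf was closest to Atxn1 (0.988), Stx4 (0.979) and Creb3 (0.974), and Cyr61 to Gabbr1 (0.978), Mapkapk2 (0.973) and Sept4 (0.963). For Thbs1 they were Hey2 (0.994), Atp5sl (0.993) and Sorbs3 (0.993), a likeness set by the primary arrays, where alone Thbs1 was well above background on every array. The 9 means share lines, slides and scan days, and the coefficients are descriptive.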

How the data were processed

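Total RNA was labelled with Cy3 and hybridized to 1-colour Agilent rat arrays (26 arrays, 9 groups by the labels). The authors deposited scanner output whose intensity values (background-subtracted processed signal, Feature Extraction 10.1.1.1) were used here, and a table of log2 values that equalled log2 of that intensity and was not normalized between arrays. As in the study's methods, log2 intensities of gene features were quantile-normalized, and features of one probe were averaged. Of 41012 gene probes, 24442 were tested, namely those that the scanner called well above background throughout at least 1 group. Values near 0 are below the measurable range. limma 3.58.1 in R 4.3.3 fitted all 9 groups without covariates; p-values were adjusted over all tested probes (Benjamini-Hochberg, threshold 0.05), and 95% confidence intervals are from that fit, unadjusted. Bounds set the bright group's mean against the mean, over the dim group's arrays, of the higher of the lowest signal well above background and the probe's own. The number of arrays, 2 or 3 a group, limits the precision.

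Replicate numbers coincide with slides in the scanner headers, so they pair the arrays of a line: deviations of same-numbered arrays correlated above 0.1 in 16 of 18 pairs in Cl19 (lowest 0.062) and 18 of 18 in 3c3 (lowest 0.204). The replicate block was fitted as an alternative.

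The members, gene lists and marker lists were chosen with earlier results of these data known. Named genes of each list are at most 4 past the threshold in the same direction in both lines with the largest smaller change, and for likeness the 3 genes with the highest r among tested genes well above background throughout at least 3 groups. Promoter windows are from RefSeq (GRCr8), and probe positions (rn4) from the array annotation. Alternatives were 75th percentile scaling, normexp correction (offset 50), the authors' log2 table, no filter, a floor for dim values, compared groups only, trended robust variance, the methods' t-test, the mean of probes, and leaving out each array or the slide of 3c3 replicate 3.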

Additional observations from a re-analysis of the deposited data

Results flagged for a closer look

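The change of Tnc from d0 to d6 differed between the lines by -4.42 (log2, 3c3 minus Cl19; adjusted p = 0.00174) in the limma test of the difference itself, with adjusted p from 6.41e-06 to 0.0318 over the alternatives. The change of Sparc differed by 1.51 (adjusted p = 0.000486; from 0.000102 to 0.00666 over the alternatives) in the same order of subtraction.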

How the results depend on the processing

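The number of the 10 genes called for d6 against d2 fell from 5 to 3 in Cl19 when only the compared groups were fitted and to 1 with the methods' t-test, and rose from 3 to 5 in 3c3 with the replicate block, which added Cyr61 (adjusted p = 0.0107) and the dim Spon1 (adjusted p = 0.0433). The block changed no other call among the 10 genes. Counts for the other comparisons stayed within 1.5 times under all alternatives run. Differences whose sign turned were mostly near 0. Sparc on d6 against d0 in 3c3 was -0.19 with 75th percentile scaling and -0.049 to 0.086 when arrays were left out one at a time. The line difference in the d6 change was -0.033 to 0.19 for Ctgf and -0.16 to 0.13 for Cyr61 with arrays left out, and 0.10 for Cyr61 without the slide of 3c3 replicate 3. Spon2 on d0 in 3c3 against Cl19 was -0.028 with 75th percentile scaling, -0.015 with normexp, -0.089 with the authors' table, -0.17 without that slide and -0.17 to 0.21 with arrays left out. Primary SMCs against Cl19 d6 gave -0.55 for Ctgf with the authors' table, and 0.051 (75th percentile) and 0.45 (mean of probes) for Cyr61. Against 3c3 d6 they gave 1.28 for Sparc and 1.51 for Ctgf with 75th percentile scaling, and 0.025 for Cyr61 with the mean of probes. The cause was not tested. Where leaving out an array left 1 primary array, it was assumed to vary like the other groups. Signals near background limit Tnc in every rMAPC group except Cl19 d6. They limit Spon1, Thbs1, Thbs2, Postn and Spp1 in all rMAPC groups.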
